A study of Danio rerio with 8 samples.

Results

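The data compared livers of male zebrafish kept in water from both tributaries of the Hun River with livers of fish kept in water from the river itself. The labels name the sites, and the study places them on the rivers. D lies on the Dongzhou River and X on the Xi River (2 tributary arrays), and H1 to H5 lie along the Hun River (5 mainstream arrays). Thus 7 of the 8 arrays of the series entered the comparison. The eighth array, from fish in control water, entered the normalization of the arrays and is otherwise given for reference only. All fish were wild-type males of 3 months, exposed for 96 h. One label of both tributary samples gives 97 h while their other label gives 96 h. The RNA on an array came from a pool of 5 livers, and 1 array per site was analysed here. Single sites therefore have no replicate check, and any p-value below measures the spread between sites and arrays, not between fish. According to the study, the Dongzhou River receives petroleum and chemical discharges and the Xi River domestic and pharmaceutical effluent, and the comparison asks whether livers from tributary water differ in common from livers from mainstream water.

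The liver makes most plasma proteins and apolipoproteins, stores and burns fat, breaks down amino acids and clears foreign chemicals. In zebrafish the lobes of the liver lie against the gut, and the pancreas is spread as strands of exocrine tissue with scattered islets along the gut and bile ducts, so that a dissected liver can carry tissue of its neighbours. In bulk RNA, fewer cells of a type and less RNA per cell cannot be told apart. The liver label was borne out by its markers: the summed signal of 24 hepatocyte markers, among them fabp10a (the liver fatty acid binding protein) and tfa (transferrin), was 2233430 at D and 2068940 at X, against 1961030 to 2199020 at H1 to H5.

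Values are log2 fluorescence signals after quantile normalization over the arrays, so that 1 unit is a 2-fold step. A probe entered the test when at least 5 of the 7 arrays showed it well above background, and it was counted as beyond the mainstream range when both D and X lay above, or both below, all 5 mainstream values. The gap is the distance between the nearer tributary and the nearest mainstream site. Of 24929 tested probes, 3133 (12.6%) were higher and 1374 (5.51%) lower at both tributaries than at all 5 mainstream sites. With a gap of at least 2 fold, 27 probes were higher (0.108%) and 63 were lower (0.253%), and the median gap among probes beyond the range was only 1.12 fold. The lower side held fewer probes but more of the wide gaps under this filter, which bars probes that were bright at the tributaries alone. When 2 arrays well above background were enough, 170 probes were higher and 86 lower by at least 2 fold, and with no filter 244 were higher and 94 lower. Higher probes made up 69.5% of those beyond the range, and 80.2% when arrays were scaled to their 75th percentile instead. That scaling moved the median difference of all probes to 0.15, against 0.03 here. With it 16.3% of all tested probes were higher and 4.02% lower at both tributaries. Single mainstream arrays set part of the lower count: it was 2107 without H3 and 2220 without H4, and with a gap of at least 2 fold it was 183 without H3 and 96 without H4. The higher count with that gap was 66 without H1, 64 without H3 and 44 without H4. With 1 tributary in place of both, 5964 probes were higher and 2987 lower at X alone, and 7570 were higher and 6857 lower at D alone. No probe passed limma's moderated test after Benjamini-Hochberg adjustment over all probes (0 higher, 0 lower), although 3321 probes (13.3%) had an unadjusted p under 0.05. Without H3 limma called 1 higher and 14 lower, and without X it called 121 higher and 371 lower for D alone. The smallest adjusted p was 0.0787, for a probe of tmem86b, a lysoplasmalogenase that cleaves ether lipids. For a single value, 2 against 5 arrays cannot give a two-sided exact permutation p below 0.0952. Nearest to the border, fbxw2, a subunit of ubiquitin ligases, lay just inside the higher side, with 10.93 at D and 10.68 at X, against 10.51, 10.59, 10.40, 10.42 and 10.68 at H1 to H5, and sdf2, a protein of the endoplasmic reticulum, lay just outside the lower side, with 10.28 at D and 10.23 at X, against 11.23, 11.09, 10.85, 10.28 and 11.30 at H1 to H5.

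By correlation, D was nearer to X than to any mainstream site, while X was nearer to a mainstream site than to D. Pearson's r across the tested probes was 0.929 between D and X, 0.882 to 0.916 between D and the mainstream sites, 0.908 to 0.954 between X and the mainstream sites, and 0.888 to 0.973 among the mainstream sites. The median absolute difference between D and X was 0.52 and the median SD among the mainstream sites 0.35, which are unlike measures. D alone lay beyond all 5 mainstream sites at 14427 probes and X alone at 8951. Both tributary arrays also lay beyond the mainstream arrays on technical measures, D clearly and X only narrowly. At D 31017 spots and at X 28003 were well above background, against 24770 to 27892 at the mainstream sites. The 75th percentile of the signal was 922 at D and 1101 at X, against 1139.5 to 1801 at H1 to H5. D shared slide 1 with H1 and H2, X shared slide 2 with H3, H4 and H5, and both held position 4 of their slide. Position and tributary water cannot be told apart.

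Collapsed to genes by the mean over probes, 9592 genes were measured, of which 1055 (11%) were higher and 571 (5.95%) lower at both tributaries. For 718 genes (7.49%) every probe was higher, and for 375 (3.91%) every probe was lower. Only 25 genes were lower and 5 higher with a gap of at least 2 fold. The 25 included 5 islet genes, 3 intestine genes and 4 genes of fatty acid or lipoprotein handling, with 1 gene in both of the last groups, and 12 belonged to no list. The plot of the widest gaps shows the 12 leading genes of each direction among those well above background on all 7 arrays.

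**Figure D1:**
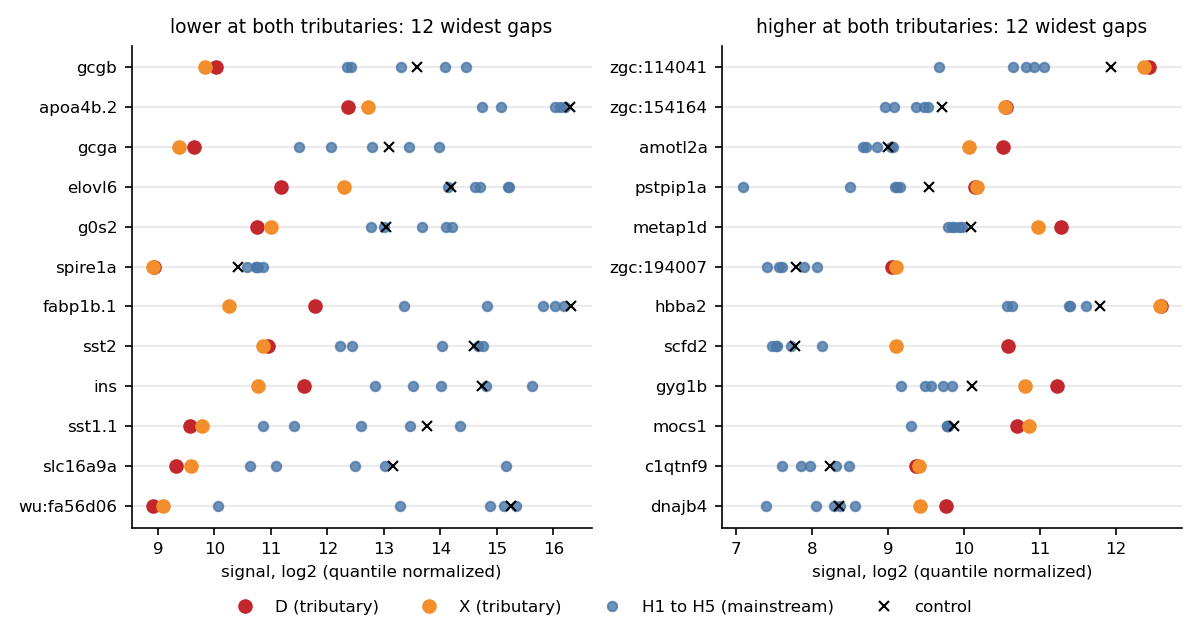
Log2 signal (horizontal axis) of the 12 genes with the widest gaps in each direction, with 1 row per gene; red and orange circles are D and X, blue circles the 5 mainstream sites and crosses the control. Gaps run from 1.97 to 5.02 fold among the lower genes and from 1.81 to 2.48 fold among the higher genes, and the control lies among or near the mainstream values in most rows.

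Hormone genes of the pancreatic islet formed the largest group among the wide gaps. Glucagon raises blood glucose, insulin lowers it, and somatostatin restrains both. The glucagon gene gcgb gave 10.03 at D and 9.83 at X, against 12.35 at H1, 14.08 at H2, 12.42 at H3, 14.45 at H4 and 13.31 at H5, with 13.59 in the control. Both tributaries lay at least 5.02 fold under the lowest mainstream site, and the mean difference was -3.40 (limma SE 0.60; 10.5-fold lower; adjusted p 0.227 in the fit over genes). Its paralog gcga gave 9.63 at D and 9.38 at X, against 12.07, 13.44, 11.51, 13.97 and 12.79 at H1 to H5. Insulin, ins, gave 11.58 at D and 10.77 at X, against 13.51, 14.80, 12.84, 15.63 and 14.01 at H1 to H5. These hormones ranked the mainstream sites alike, with H4 highest and H1 or H3 lowest, and the tributaries stood below that whole range. The somatostatin genes sst2 (10.94 at D and 10.85 at X, against 12.21 to 14.76 in the mainstream) and sst1.1 (9.57 at D and 9.78 at X, against 10.85 to 14.34) were also lower at both tributaries, as was ghrl, ghrelin (11.18 at D and 10.47 at X, against 11.54 to 13.93).

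The endocrine pancreas list as a whole was 0 above and 6 below of 14 measured genes (42.9% below, against 5.95% of all genes), with a median difference of -1.18 against 0.02 for all genes. Only 6 hormone genes lay beyond the range, and the insulin paralog insb overlapped it (difference 0.15). Of the 14 differences 9 were negative and 5 positive, the latter including pax6b (0.88) and arxa (0.95). The islet transcription factor pdx1 overlapped (7.83 at D and 7.45 at X, against 6.34 to 10.15), and so did the prohormone convertase pcsk2 (11.05 at D and 10.23 at X, against 9.83 to 10.77) and chga, chromogranin A (10.40 at D and 9.58 at X, against 9.21 to 9.76). The list's summed signal was 19432 at D and 14152 at X, against 32403 to 167880 at the mainstream sites and 109801 in the control. The share of islet tissue in each pool was not measured, and its part in these differences was not tested.

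Some genes of the gut lining were far lower at the tributaries. The acidic chitinases chia.1 and chia.3, which digest chitin from food, were close to background at both tributaries. The chia.3 signal was 6.45 at D and 5.28 at X, against 14.94 at H1, 16.53 at H2, 10.24 at H3, 17.20 at H4 and 16.95 at H5, and no chia.3 probe was well above background at X. The chia.1 signal was 5.98 at D and 5.71 at X, with 1 of its 2 probes well above background at each, against 14.05, 15.86, 8.48, 16.56 and 16.24 at H1 to H5. With dim signals set to the lowest level that counts as well above background, chia.3 was at least 425-fold and chia.1 at least 213-fold below the mainstream mean, but H3 lay about midway, and the gap to H3 was 13.8 fold for chia.3 and 5.65 fold for chia.1 (3.75 fold with dim signals set that way). fabp1b.1, a fatty acid binding protein of enterocytes and liver, gave 11.79 at D and 10.27 at X, against 14.82, 15.82, 13.35, 16.03 and 16.18 at H1 to H5, and fabp2, the intestinal form, gave 9.01 at D and 11.32 at X, against 14.20, 15.77, 11.81, 15.65 and 16.18 at H1 to H5. In each of the 4 genes both tributaries were lowest and H3 was the lowest mainstream site.

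Of 24 measured intestine markers, 0 were above and 6 below all mainstream sites (25% below, against 5.95% of all genes), with a median difference of -1.67. For several others H3 alone overlapped. The microvillus protein vil1 (villin) gave 7.46 at D and 4.62 at X, against 11.65, 13.86, 6.03, 14.49 and 14.33 at H1 to H5. Without H3, 16 of the 24 genes lay below the remaining sites, against 8.45% of all tested probes (a share over probes, not genes). H3 is the array that overlapped, so this count and the limma calls without it are a description only. The summed signal of the list was 289554 at D and 271519 at X, against 282043 to 1019470 in the mainstream, where the lowest value was H3, and 1040220 in the control. Without H3, limma called 14 probes lower and 1 higher, and the 14 included 2 probes each of chia.1 and chia.3 (adjusted p 0.0109 for the lowest probe of either gene), chia.2, apoea (adjusted p 0.0256) and apoa4b.2 (adjusted p 0.0439). How much gut tissue entered each pool was not measured, and its part was not tested.

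The digestive enzymes of the exocrine pancreas overlapped the mainstream range with 1 exception, although most of their differences were negative. Trypsinogen prss1 gave 15.97 at D and 15.57 at X, against 15.62, 16.74, 14.58, 17.21 and 17.08 at H1 to H5, and carboxypeptidase cpa1 gave 12.62 at D and 11.56 at X, against 12.47, 14.42, 10.59, 15.90 and 14.91 at H1 to H5. D and X lay near H1 for both enzymes, above H3 and below H2, H4 and H5. Of the differences of 23 measured enzymes and markers 20 were negative and 3 positive, with a median of -0.54. Summed signals were 519664 at D and 341666 at X, against 163588 to 1311900 in the mainstream. Only 1 of the 23 was above (4.35%, against 11% of all genes) and 0 were below (against 5.95% of all genes). The exception was the amylase amy2al1 (14.45 at D and 14.30 at X, against 13.39, 13.71, 14.12, 13.55 and 13.61 at H1 to H5), which was higher at both tributaries.

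**Figure D2:**
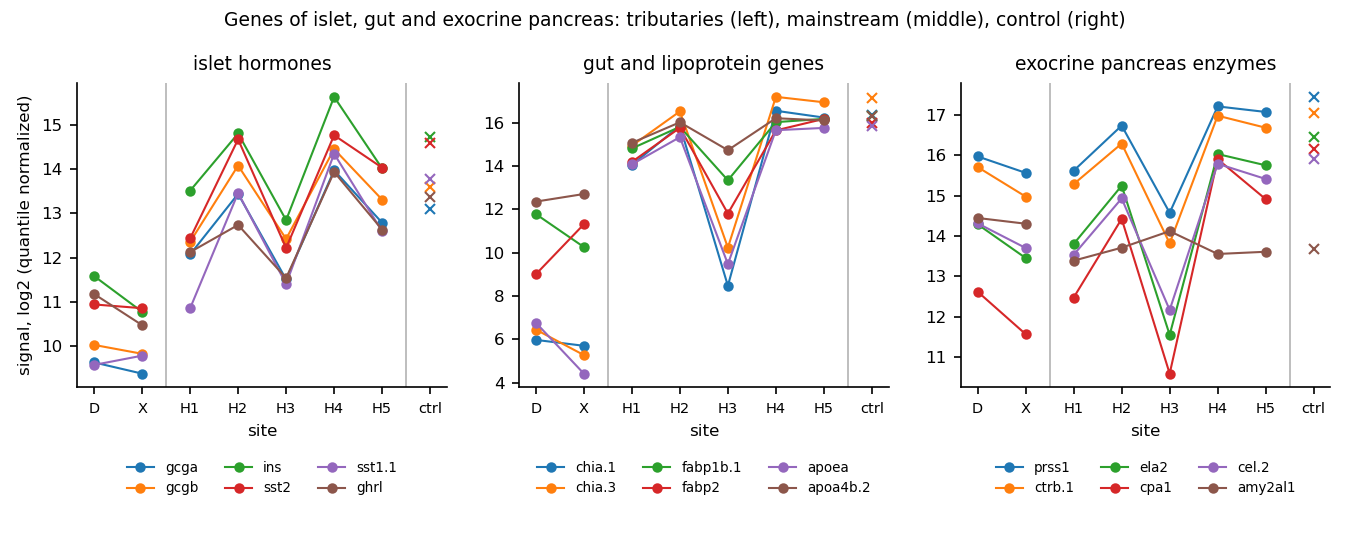
Log2 signal (vertical axis) of 6 islet hormone genes, 6 gut and lipoprotein genes and 6 exocrine pancreas genes at each site, with D and X left, H1 to H5 in the middle and the control as crosses at the right; lines only join values of one gene. The hormone and gut genes are lowest at D and X with H3 or H1 next, whereas the exocrine enzymes apart from amy2al1 are lowest at H3.

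Some genes of lipid handling were among the lower ones with wide gaps. Apolipoproteins coat the particles that carry fat in blood, and the fatty acid enzymes build and store the fat. apoea, an apolipoprotein E gene, gave 6.77 at D and 4.42 at X, against 14.08 at H1, 15.34 at H2, 9.48 at H3, 15.66 at H4 and 15.77 at H5. With the X signal set to the lowest level that counts as well above background, it was at least 177-fold below the mainstream mean. Its signal was not well above background at X, and H3 again lay between the tributaries and the other sites. apoa4b.2, an apolipoprotein A-IV gene, gave 12.36 at D and 12.71 at X, against 15.08, 16.03, 14.74, 16.21 and 16.11 at H1 to H5, a difference of -3.09 ± 0.45 (SE), 8.54 fold. Here H3 was close to H1, and the tributaries were close to each other. Smaller gaps were found for angptl4, an inhibitor of lipoprotein lipase (9.30 at D and 10.62 at X, against 11.12 to 12.47), and apoeb, the second apolipoprotein E gene (15.85 at D and 14.97 at X, against 16.02 to 16.37). Of 25 measured genes of the list, 7 were below (28%, against 5.95% of all genes) and 0 above, with a median difference of -0.44. After scaling each array to its 75th percentile, 4 were below and 1 was above, while 4.02% of all probes were below and 16.3% above. Without that scaling, the gaps of apoa1a, lipg, apoc1 and apoeb were narrow, from -0.01 to -0.18 in log2. The part of gut tissue in the differences of lipid genes was not tested.

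elovl6, the elongase that makes stearate from palmitate, had one of the clearest separations with an even mainstream. It gave 11.18 at D and 12.29 at X, against 14.70 at H1, 15.21 at H2, 15.20 at H3, 14.61 at H4 and 14.14 at H5 and 14.19 in the control. The mainstream mean was 14.77 ± 0.45 (SD, n = 5), the difference -3.04 ± 0.40 (SE), 8.21 fold, and its lowest probe had an adjusted p of 0.111. g0s2, an inhibitor of the fat droplet lipase ATGL, gave 10.76 at D and 11.01 at X, against 14.11, 13.67, 14.21, 12.77 and 13.01 at H1 to H5, a mean difference of 6.37 fold. plin2, the coat protein of fat droplets, was 8.15 at D and 9.31 at X but spanned 9.53 to 13.38 in the mainstream, so its gap was only 1.17 fold. dgat1a (12.19 at D and 12.01 at X, against 12.50 to 13.65), which makes triglyceride, and fitm2 (8.57 at D and 8.62 at X, against 9.04 to 10.13), which packs it into droplets, were also below. Of 24 genes for fatty acid synthesis, desaturation and storage 7 were below (29.2%, against 5.95% of all genes) and 1 was above, with a median difference of -0.69. The exception was thrsp, a regulator of fatty acid synthesis, at 14.92 at D and 14.89 at X, against 12.68 to 14.68. With the 75th percentile scaling 5 were below and 1 above, while 4.02% of all probes were below and 16.3% above.

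Fatty acid oxidation and PPAR receptor genes were closer to the shares of all genes, which were 5.95% below and 11% above. Of 41 genes 5 were below (12.2%) and 1 was above, led by the same fabp1b.1 and fabp2, and the median difference of -0.18 turned to 0.05 with 75th percentile scaling. acad11, an acyl-CoA dehydrogenase, gave 13.14 at D and 13.72 at X, against 13.83 to 14.65. In cholesterol synthesis 2 of 25 genes were below (8%, near the 5.95% of all genes) and 0 above. The 2 were hmgcs1, the HMG-CoA synthase (10.79 at D and 10.84 at X, against 11.19 to 13.24), and acat2 (9.27 at D and 9.27 at X, against 9.39 to 11.03).

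A few genes of ribosome assembly and the Myc transcription factors mych and myca lay below the mainstream range, while most genes of the list overlapped it. Of the 70, 11 were below (15.7%, against 5.95% of all genes) and 3 above, with a median difference of -0.14. This list was drawn up after the values had been seen, so its counts are a description only. mych, a Myc family member, gave 6.61 at D and 6.36 at X, against 8.90 at H1, 8.54 at H2, 9.08 at H3, 8.96 at H4 and 8.998 at H5 and 9.23 in the control. The mainstream SD was 0.21, while both tributaries were 3.81 fold or more below the lowest of them, and the X signal was not well above background. With the X signal set to the lowest level that counts as well above background, the tributaries were on average at least 5.19-fold lower. A further mych probe passed when 2 arrays were enough, and the gap over both probes was 1.24 fold. When limma was fitted to genes in place of probes, mych fell with an adjusted p of 0.0412. So did spire1a, an actin nucleator, with the same adjusted p and 8.92 at D and 8.91 at X, against 10.73 at H1, 10.86 at H2, 10.77 at H3, 10.73 at H4 and 10.58 at H5. These were the only calls among 9592 genes in that fit (2 lower, 0.0209%, and 0 higher). For spire1a the mainstream SD was 0.10, and D and X were nearly equal.

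The other members below the range had smaller gaps than mych. odc1, ornithine decarboxylase, a Myc target that starts polyamine synthesis, gave 7.71 at D and 7.86 at X, against 12.53, 10.43, 11.11, 8.85 and 11.48 at H1 to H5, with 8.52 in the control, below the lowest mainstream site. nop16, a nucleolar protein, gave 10.02 at D and 10.78 at X, against 11.76 to 12.20, and rrs1, an assembly factor of the large subunit, gave 8.42 at D and 10.05 at X, against 10.36 to 10.91. nhp2, a component of snoRNA particles, was 10.82 at D and 11.08 at X, against 11.36 to 11.62. The Myc gene myca was below the range with a narrow gap of -0.20 in log2 (difference -0.97). The Myc gene mycb overlapped the mainstream (13.90 at D and 13.42 at X, against 11.87 to 15.02). For odc1 the control lay with H4 and not with the remaining mainstream sites.

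Genes for the proteins of the finished ribosome were, if beyond the range, higher. Of 80 cytosolic ribosomal protein genes 16 were above (20%, against 11% of all genes) and 0 below, with a median difference of 0.12. rps8b gave 12.57 at D and 12.31 at X, against 11.25 to 11.96, and rplp0, the acidic stalk protein, gave 17.13 at D and 16.79 at X, against 16.64, 16.60, 16.57, 16.57 and 16.58 at H1 to H5. Ribosomal protein genes have many near-identical copies, so single probes may report several of them. The count depended on the scaling: with the 75th percentile 69 of the 80 were above and the median difference was 0.73, while that of all genes was 0.13. Subunits of the proteasome, the main protein degrading complex, gave 5 of 43 below (11.6%, against 5.95% of all genes) and 1 above. psmd8, of the regulatory cap, was 11.66 at D and 11.70 at X, against 12.18 to 13.12, and psmg2, an assembly chaperone, was 13.86 at D and 13.37 at X, against 12.55 to 13.23.

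**Figure D3:**
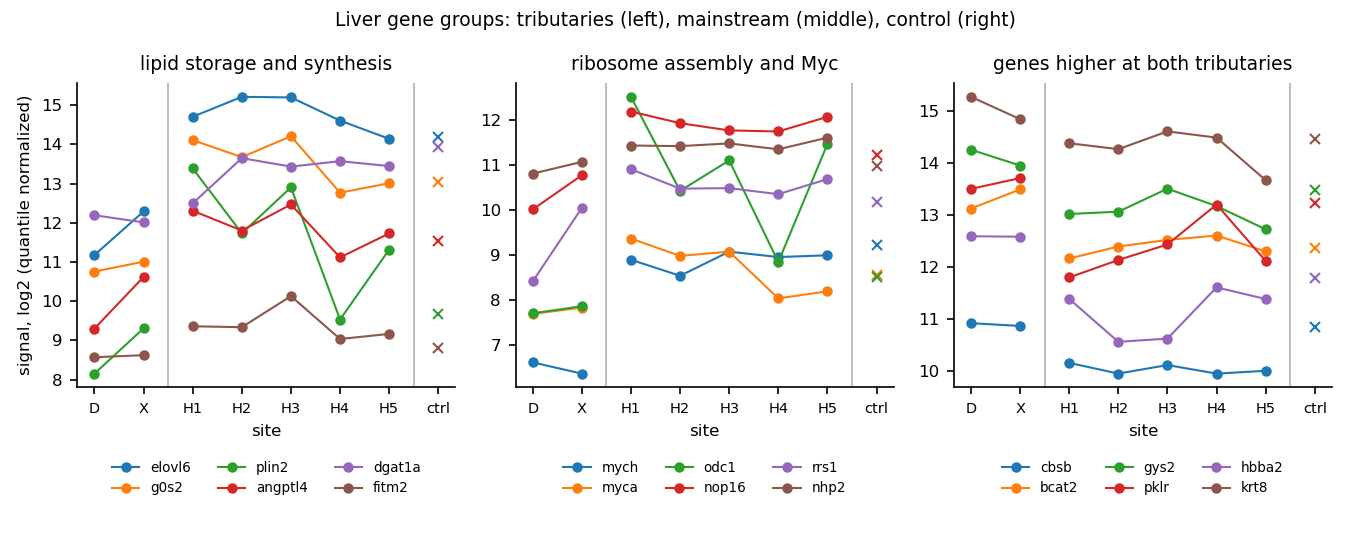
Log2 signal (vertical axis) of 6 lipid genes, 6 genes of ribosome assembly and Myc and 6 genes that were higher at both tributaries, with D and X left, H1 to H5 in the middle and the control as crosses at the right; lines only join values of one gene. The mych values are level at 8.54 to 9.08 from H1 to H5 and at 6.61 and 6.36 at D and X, while odc1 and plin2 vary widely along the mainstream.

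Enzymes of amino acid breakdown were, if beyond the range, higher. Of 38 genes 8 were above all mainstream sites (21.1%, against 11% of all genes) and 0 below (5.95% of all genes), with a median difference of 0.19. With 75th percentile scaling 11 were above and 0 below, while 16.3% of all probes were above and 4.02% below. cbsb, a cystathionine beta-synthase that starts the conversion of homocysteine to cysteine, gave 10.93 at D and 10.87 at X, against 10.16 at H1, 9.96 at H2, 10.12 at H3, 9.96 at H4 and 10.01 at H5, but 10.86 in the control. The mainstream mean was 10.04 ± 0.10 (SD, n = 5) and the difference 0.86 ± 0.17 (SE), 1.81 fold, with an adjusted p of 0.227. The control thus lay with the tributaries for this gene. bcat2, the mitochondrial transaminase of branched chain amino acids, gave 13.13 at D and 13.50 at X, against 12.17, 12.40, 12.53, 12.61 and 12.30 at H1 to H5, with the control at 12.37 inside the mainstream range. hgd, homogentisate dioxygenase of tyrosine breakdown, gave 15.45 at D and 15.28 at X, against 15.06, 15.06, 15.05, 14.74 and 14.90 at H1 to H5.

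Ammonia and glutamine genes were mixed. slc25a15b, a mitochondrial ornithine carrier, was not well above background at either tributary and was at least 3.04-fold lower there than in the mainstream. It was not well above background in the control (6.15) either. The liver glutaminase gls2b gave 9.14 at D and 10.19 at X, against 10.49 to 11.65. The ammonium transporter rhbg (12.77 at D and 13.17 at X, against 11.98 to 12.64) and glud1a, a glutamate dehydrogenase (11.92 at D and 11.51 at X, against 10.86 to 11.33), were higher. In all, 3 of 19 genes were above (15.8%, against 11% of all genes) and 2 below (10.5%, against 5.95%).

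In glucose metabolism the liver glycogen synthase gys2 gave 14.26 at D and 13.96 at X, against 13.02, 13.07, 13.51, 13.18 and 12.73 at H1 to H5. pklr, the liver and red cell pyruvate kinase, gave 13.51 at D and 13.71 at X, against 11.80, 12.14, 12.44, 13.21 and 12.12 at H1 to H5, and gyg1b, a glycogenin that primes glycogen, gave 11.22 at D and 10.80 at X, against 9.57, 9.72, 9.84, 9.18 and 9.49 at H1 to H5. The lactate dehydrogenase subunit ldhbb was lower, at 15.27 at D and 15.01 at X, against 15.59 to 16.21. The glycolysis and gluconeogenesis list held 4 above and 2 below of 42 genes, both shares below those of all genes.

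Some red cell genes were higher at both tributaries. hbba2, a beta globin, gave 12.60 at D and 12.59 at X, against 11.39, 10.57, 10.63, 11.61 and 11.39 at H1 to H5, 2.78 fold above the mainstream mean. cahz, the carbonic anhydrase of red cells, gave 9.65 at D and 9.64 at X, against 8.21, 8.43, 8.79, 9.31 and 8.46 at H1 to H5, and alas2, the first enzyme of heme synthesis in these cells, 9.90 at D and 9.92 at X, against 8.85, 9.21, 8.96, 9.66 and 9.51 at H1 to H5. 5 of 14 measured markers were above (35.7%, against 11% of all genes) and 0 below, with a median difference of 0.43. The summed signal was 166951 at D and 139387 at X, against 72711 to 145798 in the mainstream. Abundant globins such as hbba1 (15.92 at D and 15.53 at X, against 14.68 to 15.65) overlapped. The blood content of each pool was not measured and its part was not tested.

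Markers of bile ducts and vessels gave 5 of 18 above (27.8%, against 11% of all genes) and 0 below. Of the 18 differences 13 were positive and 5 negative. The negative ones included plvapb (-1.60), plvapa (-1.40) and krt4 (-1.22), all with values that overlapped the mainstream range. krt8, a keratin of ducts and other epithelia, was 15.27 at D and 14.85 at X, against 14.38, 14.27, 14.61, 14.49 and 13.67 at H1 to H5, and stab1, a scavenger receptor of vessel lining, was 9.46 at D and 9.57 at X, against 8.58 to 9.29. White cell markers gave 3 of 31 below (9.68%, against 5.95% of all genes) and 0 above, but the median difference was 0.15 and 20 of the 31 differences were positive. mpx, the myeloperoxidase of neutrophils, gave 11.88 at D and 9.86 at X, against 8.64 to 11.75. npsn, a protease of neutrophils, was 8.41 at D and 8.38 at X, against 10.57, 10.15, 9.28, 9.98 and 10.01 at H1 to H5, 3.04-fold lower on average, and lyz, lysozyme, was 9.67 at D and 9.73 at X, against 9.94 to 11.56. The third was apoc1, an apolipoprotein that macrophages make but that hepatocytes make too, so it is not specific to white cells. Hepatocyte markers had 2 above and 2 below of 24, with a median difference of 0.03. serpina1l, a secreted protease inhibitor, was 18.42 at D and 18.17 at X, against 17.93 to 17.995, and fgg, a fibrinogen chain, was 16.81 at D and 16.95 at X, against 17.07 to 17.29. With 75th percentile scaling 8 hepatocyte markers were above and 0 below, while 16.3% of all probes were above and 4.02% below.

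Among genes well above background on all 7 arrays, zgc:114041, a gene with no role given in the annotation used, had the widest gap on the higher side, at 12.44 at D and 12.37 at X, against 10.82 at H1, 10.92 at H2, 10.64 at H3, 9.67 at H4 and 11.06 at H5 and 11.93 in the control. crhr2, a receptor for corticotropin-releasing hormones, had a wider gap of 2.53 fold but did not meet that limit, with 10.89 at D and 10.71 at X, against 8.61 to 9.37. metap1d, a mitochondrial methionine aminopeptidase, gave 11.29 at D and 10.97 at X, against 9.84, 9.87, 9.94, 9.98 and 9.79 at H1 to H5, a mainstream SD of 0.08 only. amotl2a, an angiomotin of the Hippo pathway, gave 10.52 at D and 10.06 at X, against 8.85, 8.71, 9.07, 8.67 and 9.04 at H1 to H5. mocs1, which starts molybdenum cofactor synthesis, was 2.12 fold above the mainstream mean (9.69 ± 0.21, SD, n = 5) and 1.87 fold or more above every mainstream site, with 9.31 to 9.80 at H1 to H5. With no filter on dim probes, mocs1 had 2 probes and a gap of only 1.12 fold. scfd2, a trafficking protein, was 4.47 fold above the mainstream mean, but D was well above X (10.58 at D and 9.11 at X, against 7.47 to 8.14). Their adjusted p was 0.227 in each of these except zgc:114041 (0.257). On the lower side, slc16a9a, a carnitine and monocarboxylate transporter, gave 9.33 at D and 9.59 at X, against 15.17, 12.48, 10.63, 11.08 and 13.02 at H1 to H5, a wide mainstream range. The unannotated wu:fa56d06 gave 8.91 at D and 9.09 at X, against 13.28, 14.87, 10.07, 15.34 and 15.13 at H1 to H5, which puts H3 between the tributaries and the other sites as for the chitinases.

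Some genes were measured on one side only. 5 genes were not well above background at either tributary and well above it at all 5 mainstream sites. pls1, plastin 1 of microvilli, was at least 32.5-fold lower at the tributaries, with 5.48 at D and 5.40 at X, against 9.99, 12.61, 7.30, 12.76 and 12.66 at H1 to H5. spata6l, named for its similarity to a sperm protein, was at least 12.4-fold lower (4.79 at D and 5.61 at X, against 7.88 to 10.81), and gpr19, an orphan receptor, at least 4.23-fold lower. rbm12, an RNA binding protein, was at least 2.29-fold lower. These bounds set the bright mean against the lowest signal that counts as well above background on each dim array. The control was well above background for pls1, spata6l and rbm12, but not for gpr19 (6.35) or slc25a15b (6.15). The filter asks for 5 of 7 arrays, so a probe that was bright only at the tributaries could not enter the counts. With no filter, 630 of 42854 probes were well above background at D and X and at none of H1 to H5, against 16 the other way. When every probe had to follow, these were 86 and 5 genes, while 13443 genes had a probe before marked ones were left out. gnb1l, a WD repeat protein, was at least 3.16-fold higher (7.76 at D and 9.40 at X, against 4.55 to 6.90), il17a/f1, an interleukin 17 cytokine, at least 2.91-fold (10.18 at D and 6.66 at X, against 4.38 to 6.63, so that D was far above and X only just above the mainstream), and crygs4, a lens crystallin, at least 2.84-fold. The protocadherins pcdh2g6 and pcdh2g29, cell adhesion proteins with many close copies, were at least 2.68-fold and 2.66-fold higher. The number of detected spots was higher at D and X as well, as given above, and its part in these genes was not tested.

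Counts for genes that answer to chemicals are to be read beside 11% above and 5.95% below among all genes. The aryl hydrocarbon receptor senses dioxin-like compounds and raises cyp1a. cyp1a gave 13.47 at D and 12.996 at X, against 12.41, 12.68, 13.41, 12.27 and 12.47 at H1 to H5, and overlapped at X. Of 7 measured genes of this list only ahrra, the repressor that the receptor induces, lay beyond the range (14.3% above, against 11% of all genes). The ahrra signal was 9.16 at D and 9.25 at X, against 8.49, 8.39, 8.31, 7.79 and 8.44 at H1 to H5, 1.90 fold. Cytochrome P450 enzymes of families 2 and 3 oxidize drugs and steroids. Of 33 genes in their list, which also holds nr1i2, pora, cyb5a and cyb5r3, 4 were above (12.1%, near the 11% of all genes). One of these was cyp2aa2, at 11.14 at D and 10.83 at X, against 9.65, 10.09, 10.52, 9.58 and 9.75 at H1 to H5. Conjugation enzymes, which add sulfate, glucuronate or glutathione, had 4 of 43 below (9.30%, against 5.95% of all genes) and 0 above. ugt1b5, a glucuronosyltransferase, gave 11.46 at D and 11.03 at X, against 12.10, 12.13, 12.31, 11.88 and 11.94 at H1 to H5, and sult2st3, a sulfotransferase, 8.56 at D and 8.35 at X, against 8.88 to 9.92. With 75th percentile scaling 2 of the 43 were below and 4 above, while 4.02% of all probes were below and 16.3% above. None of 13 estrogen response genes lay beyond the range: the yolk precursor gene vtg4 gave 8.63 at D and 11.42 at X, against 8.28, 8.49, 9.49, 7.71 and 9.06 at H1 to H5, so only X stood above.

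Stress genes and immune genes gave small counts, to be read beside 11% above and 5.95% below among all genes. Of the integrated stress response, which slows translation when amino acids are short or proteins misfold, 2 of 20 genes were below and 0 above, sesn2 (6.96 at D and 6.90 at X, against 9.82, 7.74, 8.27, 8.52 and 8.04 at H1 to H5) and mthfd2, a mitochondrial folate enzyme (6.22 at D and 5.59 at X, not well above background at X, against 6.77 to 7.43). Their list median was -0.46. Immediate early genes, which are switched on soon after a stimulus, had 2 above and 2 below of 28 and a median of -0.48, with klf6a at 11.56 at D and 11.504 at X, against 13.63, 12.79, 13.31, 12.15 and 12.08 at H1 to H5. Of 21 targets of p53, the factor that answers DNA damage, 5 were below (23.8%) and 3 above (14.3%). gadd45ab gave 8.26 at D and 8.94 at X, against 9.13, 9.33, 10.00, 10.32 and 10.39 at H1 to H5, and 11.23 in the control, and the cell death gene baxa gave 9.44 at D and 9.92 at X, against 10.10 to 10.51. Heat shock chaperones had 3 above and 2 below of 26, led by hspa8b (6.36 at D and 5.87 at X, not well above background at X, against 6.83 to 8.12) on the lower side and the chaperonin subunit cct8 (14.09 at D and 13.51 at X, against 12.48 to 13.18) on the higher. In immunity, 2 of 25 interferon and antigen presentation genes were below, irf7 (9.25 at D and 9.93 at X, against 10.18 to 10.80) and the RNA sensor dhx58 (6.41 at D and 6.72 at X, against 6.98 to 8.48).

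**Figure D4:**
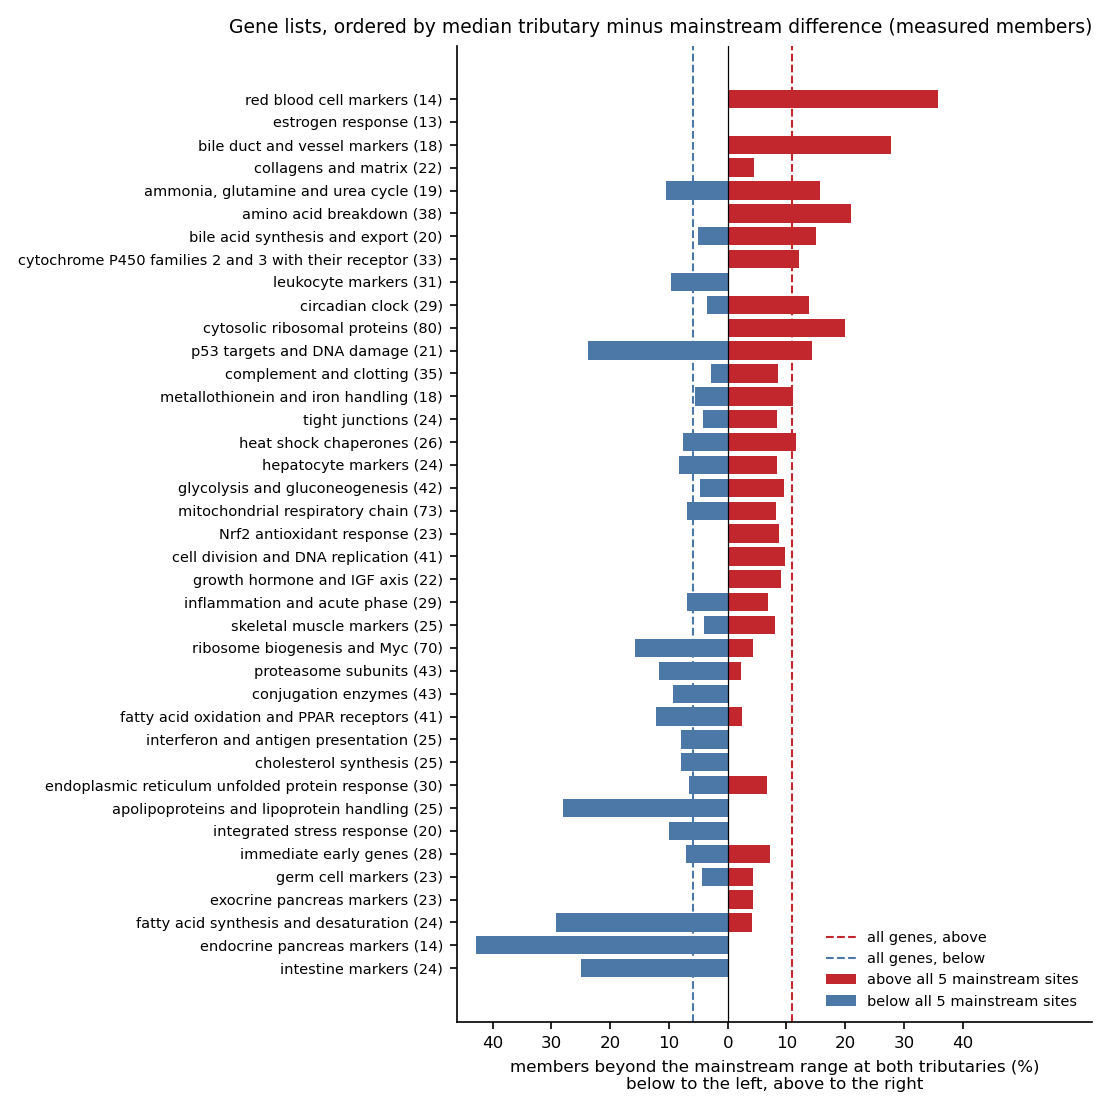
Share of the measured members of each gene list (number in brackets) with both tributaries above (right, red) or below (left, blue) all 5 mainstream sites, for the lists with at least 12 measured genes, ordered by their median difference. Dashed lines mark the shares among all genes, 11% above and 5.95% below; endocrine pancreas reaches 42.9% below and red blood cell markers 35.7% above.

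Within slides, D can be set against H1 and H2, and X against H3, H4 and H5, which are differences without a shared array. Across the tested probes the 2 differences correlated with r = 0.321, as a description only, and 58.7% had the same sign. Their SDs were 0.94 for D and 0.70 for X.

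**Figure D5:**
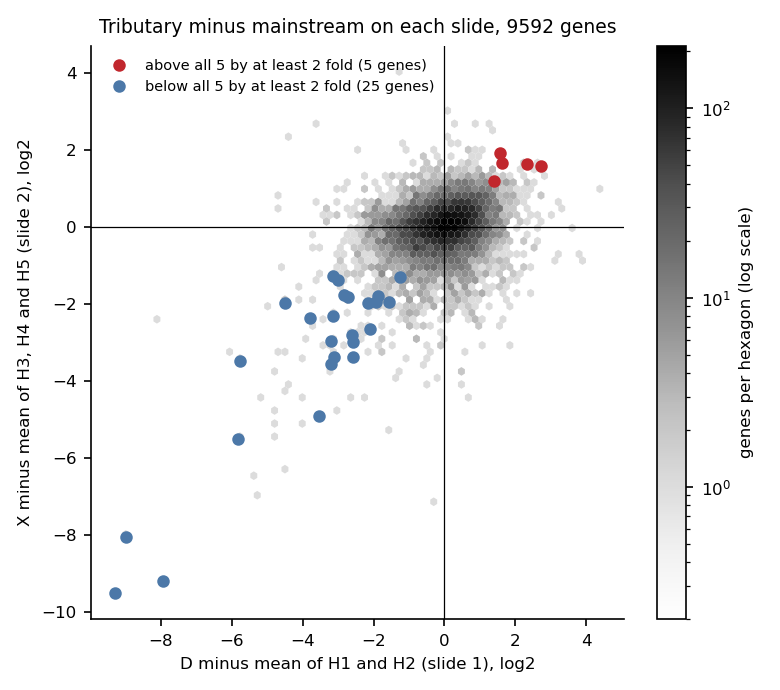
D minus the mean of H1 and H2 on slide 1 (horizontal axis) against X minus the mean of H3, H4 and H5 on slide 2 (vertical axis), both in log2 units, for 9592 genes; hexagon shading is the number of genes on a log scale. Blue marks the 25 genes below all 5 sites by at least 2 fold and red the 5 genes above, whose quadrant follows from the rule that chose them; the remaining genes show the spread on which the correlation rests.

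The control array entered the quantile normalization but not the rule that chose the genes. It lay inside the mainstream range for 65.8% of the 3133 higher probes and at or past the nearer tributary for 8.49%. For the 1374 lower probes these shares were 54.7% and 19.6%. The shares over all tested probes were not computed, so these values are a description only. Of the 63 lower probes with a gap of at least 2 fold, the control was in the mainstream range in 55.6%, beyond it on the side away from the tributaries in 20.6% and at the tributaries in 3.17%. For the islet hormone and gut genes named above, the control lay above the median of the mainstream sites.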

How the data were processed

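Livers of male zebrafish were profiled on one-colour Agilent zebrafish arrays (Cy3, 43603 probes outside the controls). The files the authors deposited give, per spot, a background-subtracted fluorescence intensity, the median intensities of spot and background, and marks for non-uniform, outlier and well-above-background spots. The labels name Feature Extraction 10.7 and the file headers 11.5.1.1. The authors also deposited log2 values, which follow the log2 signal minus 1 offset per array near the 75th percentile (at least 99.97% of probes per array within 0.01), although the methods name quantile normalization. The methods mention a second array per sample except for D, and none of these was analysed here. For D they state that 1 replicate RNA sample failed the quality check, so only 1 array was run.

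Processed signals were log2 transformed and quantile normalized over the 8 arrays. Repeated spots of 50 probes were averaged, and 749 probes marked in at least 50% of their spots on any of the 7 river arrays were left out. Probes well above background on at least 5 of 7 arrays (24929) were tested. Symbols came from a RefSeq table through probe accessions (26094 probes, 13443 genes). That table is of another assembly than the array design, so no coordinates are given. A gene's value is the mean over its probes. Signal over background and the number of arrays limit the precision, and no saturated spot was found on the 8 arrays.

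Tributary minus mainstream differences were fitted with limma 3.58.1 (R 4.3.3, lmFit and eBayes) over all tested probes with Benjamini-Hochberg adjustment, and again over genes. The code was also run on simulated data with 200 changed probes and independent noise smaller than the spread of these arrays. That run says nothing about the sensitivity of the fit to these data. Named genes are those whose probes all lie beyond the mainstream range the same way: the 12 widest gaps in each direction on all 7 arrays, the 5 largest bounds in each direction, and the 3 widest gaps in each direction of each list. Other genes, named to show list members inside the range or added in the lists on ribosome assembly, apolipoproteins, fatty acid enzymes, urea cycle and red cells, and tmem86b, mycb, mpx and crhr2, were chosen after their values were seen. The sites compared, the 40 lists written by hand and the tests were chosen with earlier results of these data known, and the list on ribosome assembly and Myc was added after its values were seen.

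The alternatives were scaling to the 75th percentile, quantile normalization over 7 arrays, values as deposited, normexp correction of the background (offset 50), other filters, a floor for dim values, keeping marked probes, genes in place of probes, the slide as a block, comparison within slides, an intensity trend in limma, and leaving out each array. Where a list count under an alternative stands beside a share of all probes, the list count is of genes, so the units differ. Without an alternative, 5.51% of probes and 5.95% of genes were below.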

Additional observations from a re-analysis of the deposited data

Results flagged for a closer look

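2 of 31 results tested had a mainstream value far from the other 4, and chance flags about 1 in 20 such groups. The mocs1 signal at H5 was 9.31, below the other mainstream sites (Dixon ratio 0.957), while D and X lay above all 5 sites. The slc25a15b signal at H1 was 8.34, above the other mainstream sites (Dixon ratio 0.888), and both tributaries were not well above background.

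The added control transcripts, which the comparison does not use, were brighter on the tributary arrays. Relative to the 75th percentile of each array, the median difference of 10 spiked transcripts from the control array was 1.55 at D and 0.26 at X (log2). At D and X, 8 of the 10 lay above all 5 mainstream sites on that scale, against 1 of 10 on the scale of the signal before scaling. The medians were 1.80 at D and 0.35 at X, against -0.54 to 0.04 at H1 to H5 and 0.10 in the control. The part of this in the differences between liver genes was not tested.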

How the results depend on the processing

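The 24 genes with the widest gaps kept their direction under every alternative that was run, except that hbba2 overlapped the mainstream range when probes well above background on at least 2 arrays were kept and hbba2, amotl2a and scfd2 overlapped with no filter. Of all 113 named genes beyond the range, 82 stayed beyond it under every alternative in which they were measured, and 0 reversed. Only 101 of the 113 were measured when all 7 arrays had to be well above background. With 75th percentile scaling 13 overlapped (dnajb1b, hspa8b, mthfd2, bbc3, plk2b, ldhbb, cycsb, ndufs6, acad11, acat2, apoc1, dhx58 and sult1st5). With no filter 13 overlapped (abcb4, amotl2a, cldne, cry5, dhx58, hbba2, kif20a, klf2b, plk2b, pvalb3, scfd2, sesn2 and stab1). With the filter of at least 2 arrays 6 overlapped (abcb4, cldne, cry5, hbba2, kif20a and pvalb3). Leaving out an array and comparing within slides cannot bring a gene back into the range. Taking genes in place of probes repeats the same gene means. Those settings therefore say nothing about stability. The 24 genes were chosen as well above background on all 7 arrays. Requiring all 7 arrays or setting a floor for dim values therefore cannot change them. The deposited values nearly repeat the 75th percentile scaling and are no separate check. The gap of mych was 1.83 fold with normexp correction and 1.24 fold with either looser filter, against 3.81 fold, and the gap of spire1a was 1.65 fold with no filter, against 3.16 fold.

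Counts beyond the range moved by over 1.5 times under these settings. With no filter on dim probes 4929 probes were higher and 2612 lower, and 244 were higher and 94 lower with a gap of at least 2 fold. Keeping probes well above background on at least 2 arrays gave 170 higher and 86 lower with that gap. With both looser filters the higher probes outnumbered the lower ones at that gap, against 27 higher and 63 lower in the report. Requiring all 7 arrays gave 14 higher and 40 lower with that gap, and normexp background correction 11 higher and 37 lower. With genes in place of probes 1055 genes were higher and 571 lower, 5 and 25 of them with that gap. With the slide as a block 47 probes were higher with that gap. Within slides 2165 probes were lower, and 79 were higher with that gap.

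limma called 21 probes higher and 6 lower with the filter of at least 2 arrays, 27 and 6 with no filter, 0 and 2 over genes, and 0 and 1 with an intensity trend. Of the probes called with the looser filters, mych, spire1a, nop16 and tmem86b were lower. Leaving out 1 array at a time gave 3307 to 7570 higher and 1598 to 6857 lower probes, 34 to 688 and 68 to 1269 with that gap, 0 to 121 and 0 to 371 by limma, 204 to 591 list genes beyond the range (180 with all arrays), and a within-slide r of 0.224 to 0.378. The highest counts came without X. No paired analysis was possible because each site has 1 array and replicate number 1 names no shared animal or day.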

Other observations

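Further groups held few members beyond the mainstream range, against 11% above and 5.95% below among all genes. In the circadian clock list, 4 of 29 genes were above and 1 was below, with the light-inducible repressor cry1a at 12.55 at D and 11.94 at X, against 10.95 to 11.68 in the mainstream, and cry5 at 8.79 at D and 9.03 at X, against 8.03 to 8.56. In bile acid synthesis and export, 3 of 20 genes were above and 1 was below. The phospholipid exporter abcb4 was 8.96 at D and 9.02 at X, against 7.73 to 8.65, and fgfr4, the receptor through which a gut hormone restrains bile acid synthesis in mammals, was 10.97 at D and 11.48 at X, against 11.76 to 13.15. Claudins, which seal the space between epithelial cells, differed in direction: cldn3d was 12.34 at D and 11.66 at X, against 12.90 to 13.64, whereas cldne was 11.83 at D and 11.46 at X, against 10.66 to 11.07. Among 41 genes of cell division 4 were above and 0 below, with the mitotic kinesin kif20a at 9.08 at D and 8.62 at X, against 7.98 to 8.31. Germ cell markers had 1 of 23 above, dmrt1, a factor of the testis (8.56 at D and 8.16 at X, against 7.23 to 7.67), and 1 below, spag6, a protein of cilia and sperm tails (8.99 at D and 9.06 at X, against 9.30 to 11.27).

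The remaining lists were near or under the shares of all genes. Of 73 respiratory chain genes 6 were above and 5 below. With 75th percentile scaling 14 were above and 0 below, while 16.3% of all probes were above and 4.02% below. The Nrf2 list had 2 of 23 above and 0 below, metallothionein and iron handling 2 of 18 above and 1 below, complement and clotting 3 of 35 above and 1 below, and inflammation and acute phase 2 of 29 above and 2 below. The unfolded protein response list had 2 of 30 above and 2 below, the growth hormone axis 2 of 22 above and 0 below, skeletal muscle markers 2 of 25 above and 1 below, and collagens and matrix 1 of 22 above and 0 below. None of 10 heart muscle markers lay beyond the range. Tight junction genes had 2 of 24 above and 1 below in all.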
